A study of Mus musculus with 2 samples.

Results

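The genes described here encode collagens, laminin chains, ADAMTS proteases with the related ADAMTS-like proteins, fibronectin and perlecan, the proteins that build or cut the extracellular matrix around brain vessels and cells. They were chosen by name alone: every symbol in any of the 9 deposited tables that starts with Adamts, with Col or Thbs and a digit, or with Lama, Lamb or Lamc and a digit, and also Fn1 and Hspg2, leaving out opposite-strand transcripts. This gave 41 of the 10596 genes listed, namely 20 collagens, 8 laminin chains, 10 Adamts genes, Adamtsl1, Fn1 and Hspg2. No thrombospondin gene was listed in any table. The values come from single-nucleus RNA sequencing of hippocampus from male C57BL/6J mice, as the series description gives the strain. Their genotype labels differ, C57/BL7 in the exposed and C57/BL6 in the vehicle group, a point that cannot be checked here. At 10 weeks of age one group had received intraperitoneal pyridostigmine bromide, a cholinesterase inhibitor, at 0.7 mg/kg and permethrin, a pyrethroid insecticide, at 200 mg/kg each day for 10 days. The other group had received vehicle on the same schedule. These chemicals model Gulf War Illness (GWI). Tissue was taken at 19 months from 3 mice of each group and pooled before library preparation, which left 1 GWI and 1 control library to compare.

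Collagens are triple-helical proteins, and each chain is the product of its own gene. Type IV collagen and the laminins, trimers of an alpha, a beta and a gamma chain, form the sheet-like basement membrane that lies between endothelial cells, pericytes and the endfeet of astrocytes. Perlecan, a heparan sulfate proteoglycan, belongs to the same sheet, and fibronectin binds integrins on the cells that lie on it. ADAMTS enzymes are secreted metalloproteinases that trim procollagens or cleave the proteoglycans of the matrix between cells. Brain tissue outside the vessels holds little fibrillar collagen, and some collagens with a transmembrane or fibril-associated form are made by neurons themselves.

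The type IV chain genes lie in head-to-head pairs, and the start regions of the pair listed in most tables are shown because Col4a1 and Col4a2 are read from a shared promoter. In RefSeq's GRCm38.p6 annotation the start sites of Col4a1 and Col4a2 lie 21 bases apart on opposite strands, and the windows of 300 bases below (most of it before the start) overlap by 78 bases. The windows of the X-linked pair Col4a5 and Col4a6, whose start sites lie 1343 bases apart, are shown for contrast. The Col4a1 window is chr8:11312777-11313076 on the minus strand, that of Col4a2 chr8:11312555-11312854 on the plus strand, that of Col4a5 chrX:141475169-141475468 on the plus strand and that of Col4a6 chrX:141474027-141474326 on the minus strand. Each is written 5′ to 3′ on the gene's own strand. Capitals mark matches, on either strand, to the GC box letters GGGCGG or the CCAAT box letters CCAAT.
Col4a1: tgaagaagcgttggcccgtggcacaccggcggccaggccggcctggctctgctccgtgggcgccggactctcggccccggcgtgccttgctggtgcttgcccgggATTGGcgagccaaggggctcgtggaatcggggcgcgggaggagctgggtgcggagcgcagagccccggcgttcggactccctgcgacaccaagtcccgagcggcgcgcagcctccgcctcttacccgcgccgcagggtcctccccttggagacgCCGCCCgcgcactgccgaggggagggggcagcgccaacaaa
Col4a2: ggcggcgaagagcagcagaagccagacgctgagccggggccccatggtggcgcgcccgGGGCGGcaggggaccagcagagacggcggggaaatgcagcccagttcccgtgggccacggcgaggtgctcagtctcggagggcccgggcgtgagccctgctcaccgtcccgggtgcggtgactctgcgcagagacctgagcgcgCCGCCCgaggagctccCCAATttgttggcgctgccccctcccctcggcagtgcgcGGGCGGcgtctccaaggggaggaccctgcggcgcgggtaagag
Col4a5: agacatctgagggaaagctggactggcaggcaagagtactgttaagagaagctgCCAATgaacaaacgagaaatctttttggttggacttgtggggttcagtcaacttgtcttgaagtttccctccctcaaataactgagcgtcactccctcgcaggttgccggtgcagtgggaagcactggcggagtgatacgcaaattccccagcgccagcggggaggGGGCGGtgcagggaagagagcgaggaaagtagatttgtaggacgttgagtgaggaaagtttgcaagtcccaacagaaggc
Col4a6: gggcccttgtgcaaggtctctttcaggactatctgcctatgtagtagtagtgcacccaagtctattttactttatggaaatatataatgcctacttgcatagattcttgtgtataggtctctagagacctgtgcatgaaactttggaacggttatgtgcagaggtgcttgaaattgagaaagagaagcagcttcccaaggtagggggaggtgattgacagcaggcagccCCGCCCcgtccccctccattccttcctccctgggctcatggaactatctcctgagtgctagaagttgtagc

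The Col4a2 window held 3 GC box matches and 1 CCAAT match, and the Col4a1 window held 1 of each. The Col4a1 GC box match lies where the windows overlap and is the same site as 1 of the 3 in the Col4a2 window. The Col4a5 window also held 1 of each, and the Col4a6 window held 1 GC box match and no CCAAT match. None of the 4 held TATAAA on either strand, and no matches within a window overlapped each other. Of all 32851 windows of this length, 35.7% held a GC box match, 37.4% a CCAAT match and 13.6% a TATAAA match. The Col4a1 and Col4a2 windows were 74.0% and 73.7% G or C, those of Col4a5 and Col4a6 52.7% and 48.3%, and the median of all windows was 52.7%. Of the 41 genes, 25 had such a window.

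Each table gives, for every gene, the share of nuclei in which it was detected in each library and a log2 fold change, positive where the level was higher in GWI. All such values below are those of the authors' deposited tables, and folds were computed from their log2 fold changes. A gene stands in a table only if it was detected in at least 10% of nuclei of 1 library and its log2 fold change was 0.05 or more in size, so a gene that is not listed may be rare there or may differ little. Since each group is a single pooled library, nothing here has a replicate spread or a test, and no gene is called changed. All 9 tables come from the same pair of libraries. How many nuclei each table holds was not analysed here. The 41 genes gave 101 values over the 9 tables. Of the 41, 14 were listed in 1 table, 10 in 2, 9 in 3 and 4 in 4. Lama2 was listed in 5 tables, Col4a1 and Lamc1 in 6, and Col4a2 in 7.

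The vessel tables held the highest detection of 14 genes in the control library, 7 in the endothelial and 7 in the pericyte table. The table that the authors named Other held that of 10, the most of any single table, and excitatory neurons that of 6. The endothelial 7 include Col5a2, detected there in only 4.2% of control nuclei. The same count over all genes was not made. Fn1, which encodes fibronectin, was detected in 60.0% of control endothelial nuclei and was listed in no other table. Hspg2, which encodes perlecan, was listed in endothelial cells alone as well, at 23.2%, as was Lamb2, a laminin beta chain gene of mature vessels, at 18.9%. Lama2, an alpha chain gene of muscle and brain-vessel laminins, was detected in 69.8% of control pericyte nuclei and in 23.2% of endothelial nuclei. All 6 type IV chain genes were listed in pericytes. There Col4a1 was detected in 27.0% of control nuclei and Col4a2 in 19.0%, against 15.9% for Col4a3, 9.5% for Col4a4, 11.1% for Col4a5 and 14.3% for Col4a6.

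Detection outside the vessels was wide for a few genes. Col4a2 was detected in 59.9% of control nuclei of the table that the authors named Other, in 39.4% of excitatory neurons and in 12.6% of oligodendrocyte precursor cells (OPCs). Lamc1, the gamma chain gene of most laminins, reached 60.7% in Other and 44.4% in excitatory neurons, and was 11.6% in oligodendrocytes. How much of this detection comes from free RNA in the droplets was not tested. Excitatory neurons held the highest detection of Adamts3 (57.5%), Col25a1 (44.2%) and Col19a1 (36.6%), astrocytes that of Lama3 (19.6%), microglia that of Col27a1 (22.7%), and oligodendrocytes that of Adamtsl1 (46.7%). The table of highest detection was the same in the GWI library for 38 of the 41 genes, and differed for Col8a1, Col11a1 and Lamc1.

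Cell type markers were read mainly in the endothelial, pericyte and Other tables. The remaining tables also listed markers of other cell types. Camk2a, an excitatory neuron marker, was detected in 80.3% of GWI and 82.6% of control inhibitory neurons, and in 62.2% and 63.4% of astrocytes. In excitatory neurons all 4 inhibitory neuron markers were lower, with a median of -0.44, where 52.3% of all genes were higher. The part of such markers in the members' values was not tested. In the endothelial table the endothelial markers Cldn5, Pecam1 and Tek were detected in 78.6%, 63.1% and 55.3% of GWI nuclei against 72.6%, 53.7% and 66.3% of control nuclei, and Cdh5 and Flt1 were not listed. In the pericyte table Vtn, Pdgfrb and Notch3 were detected in 82.1%, 78.2% and 75.6% of GWI nuclei against 73.0%, 71.4% and 58.7%. Acta2 and Tagln, markers of arterial muscle, were not listed there, and Myh11 was in 10.3% against 17.5%. Of 9 mural markers 7 were listed in pericytes and 6 of these were higher in GWI, against 47.2% of all genes there. The median log2 fold change of the 7 was 0.28, and their part in the pericyte values was not tested. Of 7 fibroblast markers Slc6a20a alone was listed in pericytes, in 46.2% of GWI against 60.3% of control nuclei. Markers of excitatory neurons, oligodendrocytes and astrocytes were listed in both vessel tables. Of 5 astrocyte markers Slc1a2 alone was listed in pericytes, in 43.6% of GWI against 25.4% of control nuclei. Of 4 OPC markers Cspg4 alone was listed in the vessel tables. It was in 43.6% of GWI against 38.1% of control pericyte nuclei, and in 8.7% against 16.8% of endothelial nuclei. Excitatory neuron markers reached up to 100% of nuclei in the Other table, where no pericyte or mural marker was listed. The 3 listed of 4 inhibitory neuron markers were lower in Other, with a median of -0.42, where 53.1% of all genes were higher. The part of these markers in the values of Other was not tested.

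Of the 101 values, 5 were past 1 in size on the log2 scale, 4 of them higher and 1 lower in the GWI library. Among endothelial cells 2 of 14 values were past it, against 16.8% of all genes listed there, and among pericytes 2 of 12, against 22.2%. The Other table had 1 of 19, against 0.382% of all its genes. No member reached it in excitatory neurons, where 0% of all genes did, or in inhibitory neurons (0.0707%), oligodendrocytes (0.0487%), OPCs (1.59%), astrocytes (0.0391%) or microglia (0.118%). Of the 101 values, 60 lay within 0.3 of zero. The heat map of values by gene shows the large ones in the vessel tables and Other.

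**Figure D1:**
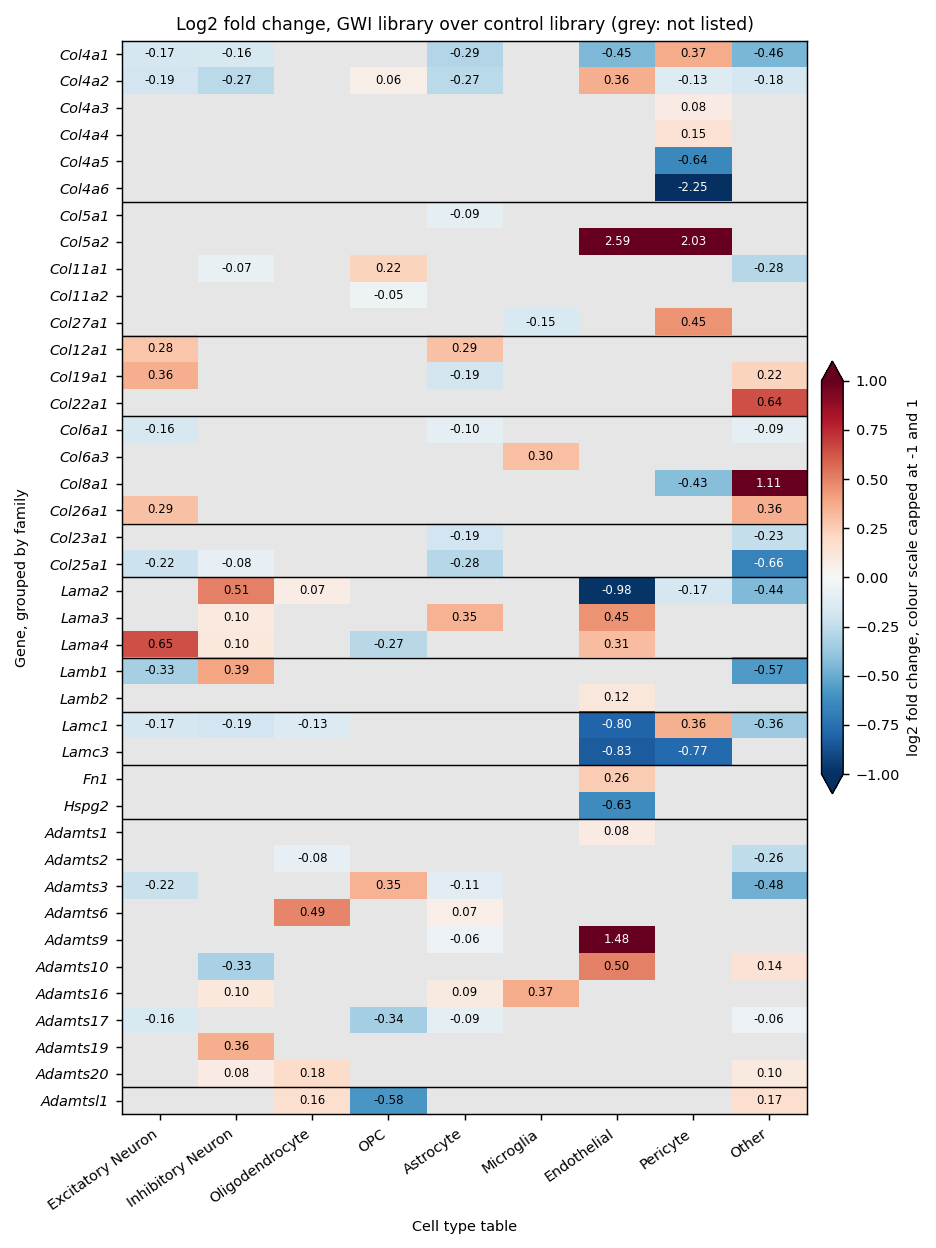
Log2 fold change, GWI over control, for the member genes named in the text (rows, grouped by family) in the 9 cell type tables (columns), with each value printed and the colour scale capped at -1 and 1. Grey cells are genes a table does not list; the values past 1 are those of Col5a2 in endothelial cells and pericytes, Adamts9 in endothelial cells, Col4a6 in pericytes and Col8a1 in Other.

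By direction, 47 of the 101 values were higher and 54 lower in the GWI library, and their median on the log2 scale was -0.07. In excitatory neurons 5 of 13 members were higher, against 52.3% of all genes listed, with medians of -0.16 for the members and 0.06 for all genes. In astrocytes 4 of 14 were higher, against 48.6%, with medians of -0.10 and -0.06. In Other 7 of 19 were higher, against 53.1%, with medians of -0.18 and 0.06. In OPCs 3 of 7 were higher, against 50.7%, with medians of -0.05 and 0.05. The members' median thus lay below that of all genes in these 4 tables, and above it in the other 5. In endothelial cells 9 of 14 were higher, against 48.4%, with medians of 0.19 and -0.07, and in oligodendrocytes 4 of 6, against 44.5%, with medians of 0.12 and -0.07. In microglia 2 of 3 were higher, against 46.8%, with medians of 0.30 and -0.06, and in inhibitory neurons 7 of 13, against 50.6%, with medians of 0.08 and 0.05. Pericytes had 6 of 12 higher, against 47.2%, with medians of -0.02 and -0.11.

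Most members are long genes, and genes of at least 100 kb had a negative median log2 fold change in every table. In excitatory neurons the median gene span was 136 kb for the members and 43.8 kb for all genes. The median log2 fold change of all excitatory genes of at least 100 kb was -0.11, and that of the 10 members of that length -0.16. In Other the genes of at least 100 kb had a median of -0.09 and the 16 members of that length -0.21, and in astrocytes these were -0.12 and -0.09 for 13 members. The part of gene length in the members' values was not tested.

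**Figure D2:**
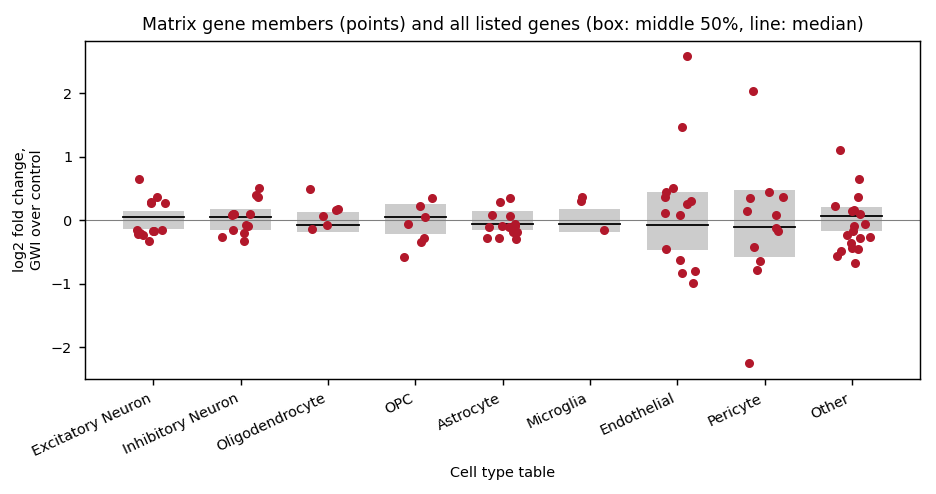
Log2 fold change of each member (red points, spread sideways for visibility) in each cell type table, over the middle 50% of all genes listed in that table (grey box) and their median (black line). Most points sit inside or near the box, which is wider in endothelial cells and pericytes, and the members' medians of -0.16 in excitatory neurons and -0.18 in Other lie under the black lines at 0.06.

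Some values entered a table through 1 library only. Of the 101 values, 83 reached 10% of nuclei in both libraries, 12 in the GWI library only and 6 in the control library only. A value of the last 2 kinds tends to lie on the side of the library that let it pass, and these include both Col5a2 values and that of Col4a6. In 18 of the 101 the detection percentage and the log2 fold change pointed opposite ways. The largest gap in detection among them was that of Lama4 in endothelial cells, detected in 25.2% of GWI against 34.7% of control nuclei with a log2 fold change of 0.31.

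Among basement membrane collagens, Col4a1 and Col4a2 were lower in the GWI library in most tables that list them. Their protein chains assemble into the main type IV network of brain vessels. In the tables that list either gene, 47.2% to 53.1% of all genes were higher, by cell type. Both genes span at least 100 kb, and of all genes of that length 25.8% to 45.2% were higher in these tables. Col4a1 was detected in 47.3% of GWI against 54.4% of control nuclei in Other, with a log2 fold change of -0.46. In endothelial cells it was in 40.8% against 50.5% (-0.45), and in astrocytes in 18.5% against 21.6% (-0.29). Neurons differed less, with 17.9% against 20.9% in inhibitory neurons (-0.16) and 33.2% against 32.6% in excitatory neurons (-0.17). Pericytes were the exception, with 26.9% against 27.0% of nuclei and a log2 fold change of 0.37. Col4a1 was thus lower in 5 of 6 tables. In GRCm38 it spans chr8:11198423-11312826 on the minus strand.

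Col4a2 was lower in 5 of 7 tables. It was detected in 22.7% of GWI against 24.5% of control astrocytes, with a log2 fold change of -0.27, and in 24.7% against 27.2% of inhibitory neurons, also -0.27. In excitatory neurons it was in 39.0% against 39.4% (-0.19), in Other in 60.4% against 59.9% (-0.18), and in pericytes in 17.9% against 19.0% (-0.13). Endothelial cells went the other way, with 46.6% against 41.1% and a log2 fold change of 0.36, and OPCs had 12.3% against 12.6% (0.06). The pair from the shared promoter was lower together in 4 of the 6 tables that list both genes. In endothelial cells Col4a1 was lower and Col4a2 higher, and in pericytes the reverse. Col4a2 spans chr8:11312805-11449287 on the plus strand.

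The minor type IV chain genes were listed in pericytes only. Col4a6 was detected in 5.1% of GWI against 14.3% of control nuclei, a 4.76-fold lower level with a log2 fold change of -2.25, the lowest of all 101 values. Its X-linked neighbour Col4a5 was in 9.0% against 11.1% (-0.64). The other head-to-head pair, Col4a3 and Col4a4, whose annotated starts lie 72 bases apart on chromosome 1, was in 14.1% against 15.9% (0.08) and 12.8% against 9.5% (0.15). Each pair thus had 1 sign in this table, lower for the X-linked pair and higher for the other. Col4a4 reached 10% of nuclei in the GWI library only, and Col4a5 and Col4a6 in the control library only, which favours these signs. For Col4a3 the detection pointed the other way. Of all pericyte genes 22.2% were past a log2 fold change of 1 in size, so values of that size are common there.

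**Figure D3:**
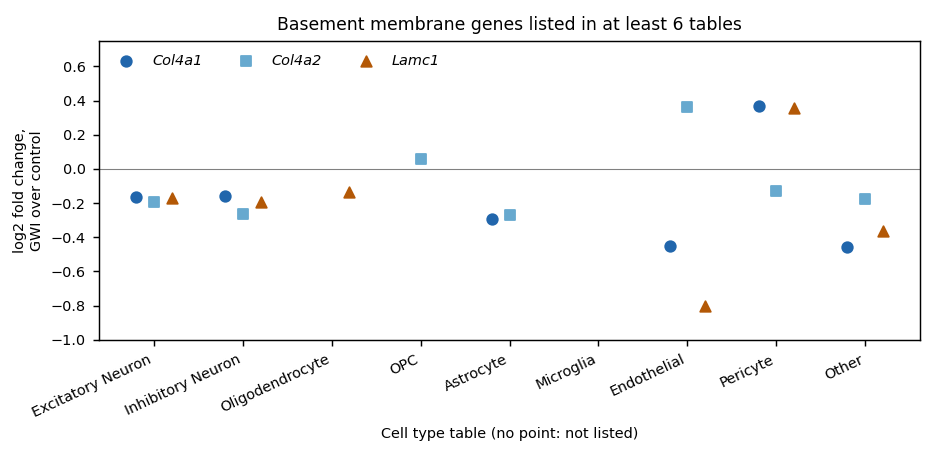
Log2 fold change, GWI over control, for Col4a1 (circles), Col4a2 (squares) and Lamc1 (triangles) in each cell type table; a missing point means the table does not list the gene. The 3 genes lie below zero in both neuron tables and in Other, while in pericytes Col4a1 (0.37) and Lamc1 (0.36) lie above zero.

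Among laminins, the gamma chain genes Lamc1 and Lamc3 were mostly lower, in 7 of 8 values, and alpha chain genes mostly higher, in 8 of 12. Of all genes listed, 44.5% to 53.1% were higher, by cell type. Lamc1 was detected in 21.4% of GWI against 34.7% of control endothelial nuclei, a log2 fold change of -0.80, and in 53.5% against 60.7% of Other nuclei (-0.36). It was at -0.19 in inhibitory neurons, with 27.1% against 29.9%, at -0.17 in excitatory neurons, with 44.0% against 44.4%, and at -0.13 in oligodendrocytes, with 11.9% against 11.6%. In pericytes it was higher, in 56.4% against 41.3% of nuclei (0.36). Lamc1 spans at least 100 kb, and of all genes of that length 22.4% to 45.2% were higher in the tables that list it. Lamc1 and Col4a1 had the same sign in all 5 tables that list both. Lamc1 and Col4a2 had the same sign in 3 of the 5 that list both, and opposite signs in endothelial cells and pericytes. Lamc3, another gamma chain gene, was in 7.8% against 12.6% of endothelial nuclei (-0.83) and in 17.9% against 28.6% of pericyte nuclei (-0.77). In GRCm38 Lamc1 spans chr1:153218922-153332786 on the minus strand.

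The alpha chain genes differed by cell type. Lama2 was in 16.5% of GWI against 23.2% of control endothelial nuclei (-0.98), in 13.4% against 15.1% of Other nuclei (-0.44) and in 65.4% against 69.8% of pericyte nuclei (-0.17). It was higher in inhibitory neurons, in 11.0% against 10.0% (0.51), and in oligodendrocytes, in 30.0% against 29.0% (0.07). Lama4, which encodes the alpha chain of an endothelial laminin, was in 13.3% against 8.1% of excitatory neurons, 1.57-fold higher with a log2 fold change of 0.65. It was the highest member of that table and reached the 10% minimum in the GWI library only. Lama4 was at 0.31 in endothelial cells, 0.10 in inhibitory neurons and -0.27 in OPCs, where detection was 22.5% against 22.3%. Lama3, the alpha chain gene of epithelial laminin, was higher in all 3 tables that list it. It was in 26.6% against 19.6% of astrocytes (0.35), 13.6% against 9.5% of endothelial nuclei (0.45) and 15.5% against 16.2% of inhibitory neurons (0.10). Its endothelial value reached 10% of nuclei in the GWI library only.

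The beta chain gene Lamb1 was in 9.3% of GWI against 12.7% of control Other nuclei (-0.57) and in 13.0% against 13.9% of excitatory neurons (-0.33). In inhibitory neurons it was in 11.7% against 10.4% (0.39). Lamb2 was in 19.4% against 18.9% of endothelial nuclei (0.12).

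In endothelial cells several laminin and collagen genes that are also listed in pericytes were lower, as were pericyte markers. Lama2, Lamc1, Lamc3 and Col4a1, all listed in both vessel tables, were lower, and Hspg2 was in 18.4% of GWI against 23.2% of control nuclei (-0.63). Col4a2 and Col5a2, also listed in both tables, were higher. All 5 listed of 9 pericyte and mural markers were lower in endothelial cells, namely Notch3 (-1.47), Vtn (-0.89), Abcc9 (-0.76), Pdgfrb (-0.58) and Rgs5 (-0.37). Their detection ranged from 11.7% to 37.9% of GWI nuclei and from 20.0% to 56.8% of control nuclei, and the percentages summed to 107 against 160.0. All 4 haemoglobin genes were lower too, in 2.9% to 6.8% of GWI against 11.6% to 23.2% of control nuclei. Of all genes listed in endothelial cells 48.4% were higher. The part of pericyte or blood RNA in the matrix gene values was not tested. Fn1 was in 53.4% against 60.0% of endothelial nuclei, with a log2 fold change of 0.26.

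**Figure D4:**
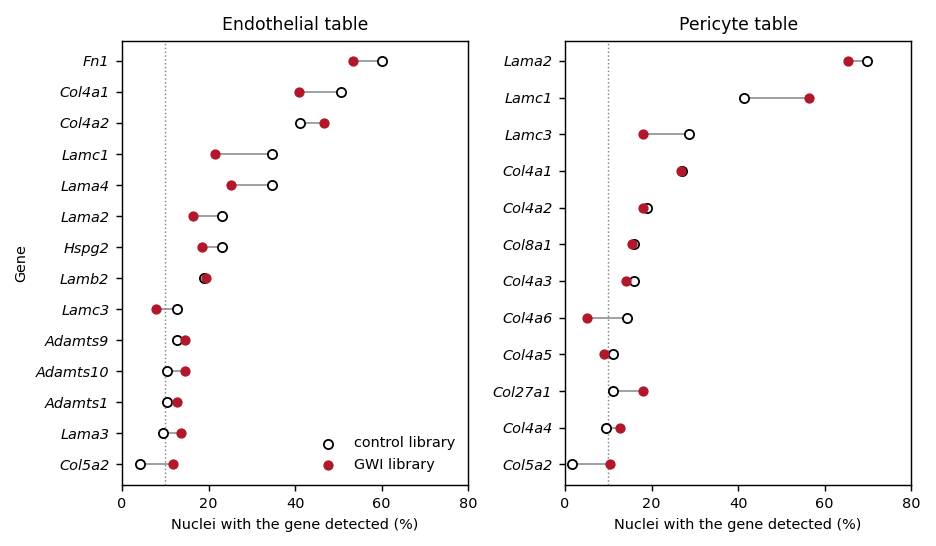
Percentage of nuclei with each member detected in the control library (open circles) and the GWI library (red circles), in the endothelial and pericyte tables; the dotted line marks the 10% minimum. In endothelial cells Lamc1 moves from 34.7% to 21.4% and Col5a2 from 4.2% to 11.7%, and in pericytes Lamc1 moves from 41.3% to 56.4%.

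Among fibrillar collagens 4 of 9 values were higher, with a median of -0.05. Of all genes in the tables that list them, 46.8% to 53.1% were higher. The 2 values of Col5a2 were the highest of all 101, and both reached 10% of nuclei in the GWI library only. Col5a2, a chain gene of type V collagen, which regulates the width of collagen fibrils, was detected in 11.7% of GWI against 4.2% of control endothelial nuclei, 6.00-fold higher with a log2 fold change of 2.59. In pericytes it was in 10.3% against 1.6% of nuclei, 4.09-fold higher (2.03). It was the highest member in both vessel tables, it was rare in the control library of both, and it was listed nowhere else. In GRCm38 Col5a2 spans chr1:45374321-45503282 on the minus strand. Its partner Col5a1 was listed in astrocytes alone, in 17.0% against 16.4% (-0.09). Col27a1, another fibrillar collagen gene, was in 17.9% against 11.1% of pericytes (0.45) and in 22.2% against 22.7% of microglia (-0.15). The type XI chain gene Col11a1 was in 25.5% against 19.3% of OPCs (0.22), 22.4% against 23.2% of inhibitory neurons (-0.07) and 10.5% against 13.6% of Other nuclei (-0.28), and Col11a2 was in 11.5% against 10.9% of OPCs (-0.05).

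The 2 transmembrane collagen genes, both of at least 100 kb, were lower in all 6 values. Of all genes of that length 30.7% were higher in excitatory neurons and 29.0% in inhibitory neurons. In astrocytes 25.8% of them were higher, and in Other 38.6%. Col25a1, a collagen of neurons whose shed part binds amyloid plaques, was in 29.4% of GWI against 34% of control Other nuclei (-0.66), the lowest member of that table. In astrocytes it was in 12.5% against 15.2% (-0.28), in excitatory neurons in 44.2% of nuclei of both libraries (-0.22) and in inhibitory neurons in 26.8% against 31.2% (-0.08). Col23a1 was in 14.8% against 16.7% of Other nuclei (-0.23) and in 12.8% against 13.2% of astrocytes (-0.19).

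Fibril-associated collagens were higher in 5 of 6 values. Of all genes 52.3% were higher in excitatory neurons, 48.6% in astrocytes and 53.1% in Other. Col12a1 in excitatory neurons and Col22a1 in Other reached 10% of nuclei in the GWI library only, which favours a higher value. Col19a1, which in mouse hippocampus takes part in the formation of inhibitory synapses, was in 45.8% of GWI against 36.6% of control excitatory neurons (0.36) and in 27.7% against 21.5% of Other nuclei (0.22). In astrocytes it was in 15.4% against 15.2% (-0.19). Col12a1 was in 19.9% against 17.1% of astrocytes (0.29) and in 10.8% against 8.6% of excitatory neurons (0.28). Col22a1 was in 14.6% against 8.5% of Other nuclei (0.64).

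Of the remaining collagens, Col8a1, which forms a short-chain network in vessel walls, had the largest difference. It was in 23.9% of GWI against 15.1% of control Other nuclei, 2.16-fold higher with a log2 fold change of 1.11, but in 15.4% against 15.9% of pericytes (-0.43). In GRCm38 Col8a1 spans chr16:57624258-57754737 on the minus strand. Col26a1 was in 19.4% against 15.6% of excitatory neurons (0.29) and in 11.7% against 10.7% of Other nuclei (0.36). Col6a1, a chain gene of the beaded filaments of type VI collagen, was at -0.16 in excitatory neurons, -0.10 in astrocytes and -0.09 in Other, where it was in 47.0% against 46.9% of nuclei. Col6a3, a chain gene of the same collagen, was in 10.1% against 7.8% of microglia (0.30).

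ADAMTS proteases went both ways, with 14 of 25 values higher in the GWI library, against 44.5% to 53.1% of all genes by cell type. Adamts3, which removes the amino-terminal propeptide of procollagens and in mouse brain cleaves reelin, was the most widely detected. It was in 55.5% of GWI against 57.5% of control excitatory neurons (-0.22), in 31.0% against 37.9% of Other nuclei (-0.48) and in 10.3% against 11.5% of astrocytes (-0.11). In OPCs it was higher, in 27.3% against 18.5% (0.35), and was the highest member of that table. Adamts2, a related procollagen protease, was in 42.7% against 45.4% of Other nuclei (-0.26) and in 11.1% against 10.7% of oligodendrocytes (-0.08). Adamts17, of the group that acts on fibrillin microfibrils, had a negative log2 fold change in all 4 tables that list it, from -0.34 in OPCs to -0.06 in Other. Its detection was lower in only 2 of the 4, OPCs and astrocytes. Adamts17 spans at least 100 kb, and of all genes of that length 25.8% to 38.6% were higher in these tables.

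Adamts1, Adamts9 and Adamts20, which cleave versican, a large chondroitin sulfate proteoglycan, were higher in 5 of 6 values. Of all genes listed, 44.5% to 53.1% were higher, by cell type. All but the endothelial value of Adamts9 were 0.18 or less in size, where 0.05 was the smallest size listed. Adamts9 was in 14.6% of GWI against 12.6% of control endothelial nuclei, 2.78-fold higher with a log2 fold change of 1.48, although detection differed little. In astrocytes Adamts9 was in 11.1% against 11.6% (-0.06). Adamts1 was in 12.6% against 10.5% of endothelial nuclei (0.08). Adamts20 was in 48.4% against 39.5% of Other nuclei (0.10), 11.9% against 10.2% of oligodendrocytes (0.18) and 17.9% against 17.0% of inhibitory neurons (0.08).

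Adamts6 and Adamts10, which act on fibrillin microfibrils, differed most in oligodendrocytes and endothelial cells. Adamts6 was in 12.9% against 9.1% of oligodendrocytes (0.49), the highest member of that table, and in 15.1% against 13.2% of astrocytes (0.07). Its oligodendrocyte value reached 10% of nuclei in the GWI library only. Adamts10 was in 14.6% against 10.5% of endothelial nuclei (0.50), 19.1% against 18.4% of Other nuclei (0.14) and 9.2% against 10.6% of inhibitory neurons (-0.33). Adamts16 was higher in its 3 tables, at 0.37 in microglia with 10.8% against 8.4% of nuclei, 0.10 in inhibitory neurons and 0.09 in astrocytes. Of all genes 46.8%, 50.6% and 48.6% were higher in these tables. The microglia and inhibitory neuron values of Adamts16 reached 10% of nuclei in the GWI library only, which favours a higher value. Adamts19 was in 16.8% against 15.5% of inhibitory neurons (0.36). Adamtsl1, which has no protease domain, was in 52.6% against 46.7% of oligodendrocytes (0.16), 22.4% against 18.9% of Other nuclei (0.17) and 8.3% against 11.8% of OPCs (-0.58), the lowest member of that table.

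Other genes of the matrix were read from lists of named genes. Of 22 other glycoproteins of basement membranes and vessel walls, 11 were listed in endothelial cells. Of these 8 were higher, against 48.4% of all genes, and the median of the 11 was 0.59 (log2) beside -0.07 for all genes. They included Mgp, which encodes matrix Gla protein (2.45), Fbln5, which encodes fibulin 5 of elastic fibres (1.20), and Vwf, which encodes von Willebrand factor (1.11), while Nid1, which encodes nidogen, the link between laminin and type IV collagen, was at -1.04. Mgp was in 17.5% of GWI against 9.5% of control nuclei, Fbln5 in 10.7% against 4.2% and Nid1 in 7.8% against 10.5%. Mgp and Fbln5 reached 10% in the GWI library only, and Nid1 in the control library only.

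Of 28 matrix receptor genes, 10 were listed in endothelial cells and 3 of these were higher, against 48.4% of all genes, with a median of -0.31. The integrin genes Itgb5 and Itgav were at -0.71 and -0.55 and Itgb1 at 0.45, and Dag1, which encodes the laminin receptor dystroglycan, was at -0.40. In pericytes 7 of 12 listed receptors were higher, against 47.2% of all genes, with a median of 0.21. Itgb5 (1.04), Sdc2 (0.85), Itga7 (0.77) and Ddr2 (-0.76) had the largest values. Itga7, in 10.3% of GWI against 6.3% of control nuclei, reached 10% in the GWI library only. Ddr2, in 7.7% against 15.9%, reached it in the control library only. In Other 1 of 11 was higher, against 53.1% of all genes, with a median of -0.17. In astrocytes 6 of 6 were higher, against 48.6%, with a median of 0.20, and Ddr1, a collagen receptor gene, was at 0.45.

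Of 25 genes for collagen modification and crosslinking, 9 were listed in endothelial cells and 3 of them were higher, against 48.4% of all genes. Colgalt1, which encodes an enzyme that adds galactose to collagen, was higher in OPCs (1.44), endothelial cells (0.86), inhibitory neurons (0.48), excitatory neurons (0.32) and astrocytes (0.19), and was at -0.09 in Other. P3h2, a prolyl hydroxylase gene, was at -1.11 in endothelial cells, -0.39 in microglia, -0.13 in Other and 0.63 in OPCs. In endothelial cells P3h2 was in 6.8% against 10.5% of nuclei, so it reached 10% in the control library only. P4ha1, which encodes a subunit of the enzyme that hydroxylates collagen prolines, was at -0.81 in oligodendrocytes, 0.66 in endothelial cells, 0.44 in pericytes and 0.27 in Other.

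Of 19 metalloproteinase and inhibitor genes, the secreted gelatinase genes Mmp2 and Mmp9 were listed in no table. Mmp16, a membrane-bound metalloproteinase gene, was at -0.49 in oligodendrocytes, -0.46 in microglia, -1.14 in pericytes and 0.42 in endothelial cells, and within 0.1 of zero in the other 3 tables that list it. Reck, which encodes a membrane inhibitor of metalloproteinases, ranged from -0.18 in OPCs to 0.90 in endothelial cells. Of 10 lectican, tenascin and link protein genes, Hapln1, a link protein gene, was in 11.5% of GWI against 3.8% of control OPCs (1.52), and Tnr, which encodes tenascin R, was in 7.7% against 23.8% of pericytes (-1.95) and in 18.4% against 30.5% of endothelial nuclei (-0.38).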

How the data were processed

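Per the labels' protocols, nuclei were captured with 10x Genomics 3′ chemistry and sequenced to 25000 or more reads each. The submitters' processing notes name Cell Ranger and GRCm38 (mm10). Neither the program behind the comparison nor the treatment of doublets and free RNA is stated in the sources read. The authors deposited log2 fold changes, detection fractions and p-values for 9 cell types, named by the authors. Fractions are printed as percentages. The deposited p-values treat nuclei as replicates and were not used. The tables number their groups, and the first was read as GWI because the comparison label names it first; every direction rests on this reading. That label writes PBS where the libraries are named vehicle.

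No test was run, since each group is 1 library. Genes were described by sign, by a log2 fold change of 1 or more in size and by medians, beside all genes of the same table. The genes named were members past that size in any table, the highest and lowest member of each table and members in at least 5 tables. Also named were the most detected member of each family in each table and up to 4 genes of each related list. Cell type markers were named mainly in the endothelial, pericyte and Other tables. The remaining members were added, except 1 that is counted but not reported here. Members and lists were chosen with earlier results of these data known. Gene positions and spans came from GENCODE M21 and promoter windows from RefSeq. Summaries were tested on tables with a planted shift. Other settings were centring on the table median, subtracting a gene's median in the other tables, a detection minimum of 25%, a size of 0.5, the mean, each family alone, and the GWI library for detection. Python 3.11.15, pandas 2.3.3, numpy 2.4.6 and matplotlib 3.10.9 were used.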

Additional observations from a re-analysis of the deposited data

Results flagged for a closer look

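Lama2 lay far apart between cell types. Its log2 fold change was 0.51 in inhibitory neurons and -0.98 in endothelial cells, a gap of 1.49. The direction of the difference was thus opposite in these cell types, and the difference between them was not tested.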

How the results depend on the processing

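No paired analysis was possible because each group is 1 library, and no library could be left out. Of the values recomputed, 84 stayed within 0.1 log2 units, 10 percentage points or 1.5 times the reported value, 38 moved further and 1 reversed; the cause was not tested beyond what each setting's construction shows. The 5 values past a log2 fold change of 1 became 18 at a size of 0.5 and 0 at a detection of at least 25%. They became 2 over values past 10% in both libraries and 1 without the endothelial and pericyte tables, settings chosen after seeing the data. Over the Adamts and Adamtsl genes alone 57.1% of values were higher and the median was 0.081, and over Fn1 and Hspg2 alone the median was -0.19. With each gene's median in the other tables subtracted, the members' median was 0.27 in oligodendrocytes, -0.16 in microglia, -0.040 in Other, and -0.027 and -0.048 in excitatory and inhibitory neurons. With a detection of at least 25% it was -0.19 in inhibitory neurons, 0.29 in OPCs, 0.35 in astrocytes and 0.091 in pericytes, over the members that remain. Centred on the table median, pericytes were at 0.086. The mean in place of the median was 0.018 in excitatory neurons, 0.17 in microglia and -0.070 in Other. Values higher in the related lists became 47.1% from 60.5% (basement membrane glycoproteins) and 57.1% from 46.8% (metalloproteinases and inhibitors) at 25% detection, and 47.1% from 57.5% (collagen modification) with other tables subtracted. By detection, Adamts17 was lower in 2 tables in place of 4, a comparison chosen after seeing the data. Col5a2 is listed in endothelial cells and pericytes only, so with other tables subtracted its value in pericytes reversed from 2.03 to -0.55 and that in endothelial cells moved from 2.59 to 0.55, below a size of 1. Depth limits rare genes most, and the spread over all genes is widest in the vessel tables.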
